A study of Mus musculus with 12 samples.

Results

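A set of 9 genes known as targets of NR5A factors in adult tissues were followed here in 8-cell mouse embryos depleted of Nr5a2, Klf5 or both. They are *Fdx1*, *Fdxr*, *Star*, *Cyp11a1*, *Hsd3b1* and *Cyp19a1* of steroid synthesis, *Scarb1* and *Apoa1* of lipoprotein transport, and *Nr0b2*, a nuclear receptor. These 9 of the 55401 genes listed were taken for that role, and *Fdx1* was also taken because it was known to fall after Nr5a2 loss, so its values after that loss are a description and carry no test. *Fdx1* was the one gene of the 9 with a level well above 0 in control embryos, and it stood at 12.5% of control in Nr5a2 KD. *Apoa1* went the other way and was higher in Nr5a2 KD. The other 7 genes had 50 counts or fewer each in all 12 libraries together, so a fall from control was not detectable in them at this depth.

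RNA-seq was made from 12 libraries, each of 10 pooled embryos, in 4 groups. There were 2 libraries of control, 3 each with Nr5a2 (Nr5a2 KD) or Klf5 (Klf5 KD) knocked down, and 4 with both (dKD). Zygotes of B6129F1 females, 3 to 5 weeks old, and B6CBAF1 males received siRNA at 8 to 9 h after fertilisation together with 150 ng/µl H2B-EGFP mRNA. The siRNA was at 15 µM in control, 5 µM in Nr5a2 KD and 10 µM in Klf5 KD, and the amounts combined for dKD were not given in the sources used here. Nr5a2 KD and Klf5 KD therefore differ from control also in their siRNA dose, and for these groups the effects of dose and target cannot be told apart. Nothing in the labels says that the pools of a group came from separate collections, so p-values measure the spread between these pools, and lower levels cannot be told from fewer cells that express a gene.

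NR5A2, also called LRH-1, and its relative NR5A1, also called SF-1, are nuclear receptors that bind DNA as monomers at an extended site built on the letters TCAAGGTCA. NR5A1 drives steroid synthesis in adrenal gland and gonads, and NR5A2 acts in liver, intestine and ovary, on genes of bile acids, cholesterol transport and oestrogen synthesis. Steroid synthesis begins when STAR brings cholesterol into mitochondria. There CYP11A1 cuts its side chain with electrons that ferredoxin reductase (FDXR) hands to ferredoxin (FDX1). HSD3B enzymes then make progesterone, and aromatase (CYP19A1) makes oestrogens. APOA1 is the main protein of high-density lipoprotein and SCARB1 its receptor. NR0B2, also called SHP, binds NR5A2 and represses it.

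The windows around the start sites of the 2 genes that moved, *Fdx1* and *Apoa1*, and of *Nr0b2* are shown to compare letters they share with the NR5A site. They are RefSeq sequences on GRCm38.p6, from 250 bases before to 50 after the RefSeq start, and capitals mark CAAGGNCA or TCAAGG on either strand (CCTTGA is TCAAGG on the other strand).
Fdx1, chr9:51963553-51963852, minus strand: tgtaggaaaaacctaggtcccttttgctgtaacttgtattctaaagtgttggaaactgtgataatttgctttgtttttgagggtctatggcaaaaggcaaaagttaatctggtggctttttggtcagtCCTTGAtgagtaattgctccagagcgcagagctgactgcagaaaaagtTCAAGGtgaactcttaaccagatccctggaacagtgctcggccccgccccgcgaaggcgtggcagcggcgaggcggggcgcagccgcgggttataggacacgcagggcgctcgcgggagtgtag
Apoa1, chr9:46228380-46228679, plus strand: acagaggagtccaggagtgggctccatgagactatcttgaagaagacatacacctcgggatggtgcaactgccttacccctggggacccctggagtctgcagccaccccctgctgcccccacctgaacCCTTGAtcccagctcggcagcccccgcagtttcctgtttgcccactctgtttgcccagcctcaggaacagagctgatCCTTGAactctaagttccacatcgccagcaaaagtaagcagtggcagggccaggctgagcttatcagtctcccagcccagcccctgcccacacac
Nr0b2, chr4:133553126-133553425, plus strand: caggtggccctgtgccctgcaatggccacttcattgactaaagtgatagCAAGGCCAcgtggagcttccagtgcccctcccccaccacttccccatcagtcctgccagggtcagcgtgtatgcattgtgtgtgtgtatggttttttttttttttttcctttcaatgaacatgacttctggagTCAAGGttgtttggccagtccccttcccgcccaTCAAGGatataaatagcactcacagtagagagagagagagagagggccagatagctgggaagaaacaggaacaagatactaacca

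The same search over both strands covered 10 windows of 7 of the 9 genes, *Star* and *Scarb1* having no entry. None of the 7 held TCAAGGTCA, which 0.423% of 32851 windows of 300 bases hold. CAAGGNCA, a looser form that contains most of the full site, was in windows of 2 genes, *Nr0b2* and *Cyp19a1*, against 6.71% of all windows. TCAAGG, a letter string chosen after the windows had been seen and itself part of the full site, was in those of 5 genes, against 14.4% of all windows. In *Fdx1* it began at -122 and -74 from the start, the first on the other strand, and in *Apoa1* at -122 and -45, both on the other strand. *Fdx1*, which was lower after Nr5a2 loss, and *Apoa1*, which was not, thus both hold 2 copies of TCAAGG and neither of the longer forms. These matches describe the letters of a short window and do not show binding.

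Each library had 6676683 to 12560926 counts on genes. The embryo markers fixed for the check summed to 14579 and 17305 CPM (counts per 1e6 counts of the library, scaled with edgeR's TMM factors) in the control libraries and to 16897 to 19585 CPM in those of Klf5 KD. Every library with Nr5a2 knocked down was higher, from 21615 to 29654 CPM in Nr5a2 KD and from 19907 to 22997 CPM in dKD, and the part of this sum in the results was not tested. Of 14 cumulus and granulosa markers, cells of the follicle that make steroids, the sum was 9.33 to 22.1 CPM, most of it *Amhr2*, and of 10 hepatocyte markers 3.10 to 13.3 CPM, most of it *Tat*. *Lhcgr*, *Inhba*, *Alb* and *Ttr*, also on those lists, had 0 counts in every library. Per library, 3 to 6 of the 14 granulosa markers and 1 to 5 of the 10 hepatocyte markers had counts. *Foxl2* and *Inhbb* passed the filter in Nr5a2 KD against control (log2 fold changes 0.26, adjusted p = 0.880, and 0.088, adjusted p = 0.970, edgeR). Only 1 to 3 granulosa markers and 1 hepatocyte marker were tested in a comparison. None of them was called by edgeR or DESeq2 or had an unadjusted p under 0.05. By edgeR, 7.86% of all genes were called in Nr5a2 KD and 7.24% in dKD against control. Mitochondrially encoded genes took 12.9 to 13.2% of the counts of a control library. That share was 6.18 to 12.5% for Nr5a2 KD, 4.41 to 11.8% for Klf5 KD and 6.17 to 12.8% for dKD. Fits with that share as a covariate are given where they end a call against control that the text names or change a direction.

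The knockdown was read from the target genes. *Nr5a2* (ENSMUSG00000026398) had 225 and 210 CPM in control, 32.9, 38.9 and 24.1 CPM in Nr5a2 KD, 117, 256 and 203 CPM in Klf5 KD, and 28.6, 31.2, 33.9 and 25.3 CPM in dKD. Some of its RNA thus stayed, 14.7% of control in Nr5a2 KD and 13.7% in dKD. *Klf5* (ENSMUSG00000005148) was at 24.5% of control in Klf5 KD, where its log2 fold change of -2.03 (SE 0.29) had an adjusted p of 0.0996 by edgeR, and at 12.3% in dKD. It was also lower in Nr5a2 KD, at 30.6% of control (log2 fold change -1.68, SE 0.23, adjusted p = 0.0013, edgeR), a call that ended when libraries were scaled by their ERCC counts, RNA added in equal amount to each lysate (-0.96, adjusted p = 0.132), so on the main scale libraries of Nr5a2 KD had less of both transcripts. *Nr5a1*, the other NR5A gene, had 0 counts in every library.

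*Fdx1* (ENSMUSG00000032051) lies on the minus strand of chromosome 9, chr9:51943306-51963556 on GRCm38, and shares no exon with another gene. It had 82.7 and 69.1 CPM in control and 9.55, 11.0 and 7.91 CPM in Nr5a2 KD. The dKD libraries were as low, with 14.5, 9.08, 7.09 and 10.0 CPM, and none of these 7 libraries reached any library of the other groups. In raw counts this is 515 and 546 against 60 to 115. Klf5 KD had 140, 83.3 and 88.4 CPM, all above control, the highest being replicate 1, the deepest library. Per kilobase of exon, the control level of 24.5 ± 3.11 CPM (SD, n = 2) was above that of 85.4% of the 14830 genes that passed the filter over all libraries.

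Mean levels of *Fdx1* were 75.9 ± 9.65 CPM (SD, n = 2) in control, 9.50 ± 1.55 (n = 3) in Nr5a2 KD, 10.2 ± 3.15 (n = 4) in dKD and 104 ± 31.5 (n = 3) in Klf5 KD. The log2 fold change was -2.97 (SE 0.25) in Nr5a2 KD against control, -2.86 (SE 0.27) in dKD against control and -3.34 (SE 0.30) in dKD against Klf5 KD. The first 2 share the control libraries, and the last 2 share the dKD libraries. These folds stand among the lowest, with 0.822%, 0.794% and 0.364% of all tested genes lower in the 3 comparisons, which is how *Fdx1* came to be chosen. Scaling by ERCC made the folds -2.25 and -2.09 against control. On that scale the median of all genes was at 0.82 and 0.84, so *Fdx1* lay about as far below the median of all genes as with TMM.

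The loss of Klf5 alone and its loss on top of Nr5a2 did not pass the test for *Fdx1*, and these comparisons did not choose it. Klf5 KD against control gave a log2 fold change of 0.47 (SE 0.31, adjusted p = 0.689, edgeR), and the exact permutation test gave p = 0.4, where 0.1 is the smallest possible. With the mitochondrial share as a covariate the value was -0.053, and without Klf5 KD replicate 1 it was 0.16 (adjusted p = 0.913). Scaling by ERCC made it 1.15 (adjusted p = 0.196), where the median of all genes was 0.66. dKD against Nr5a2 KD gave 0.10 (SE 0.30, adjusted p = 0.999), and without dKD replicate 1, the highest of that group, -0.12. In neither comparison was any gene called, 0% of 12838 and 0% of 13017 tested, although 1088 and 447 had an unadjusted p under 0.05. DESeq2 called 42 genes lower and 8 higher in the first, and 4 lower in the second. Without a filter edgeR called 69 lower and 45 higher in the first, and 17 and 3 in the second.

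**Figure D1:**
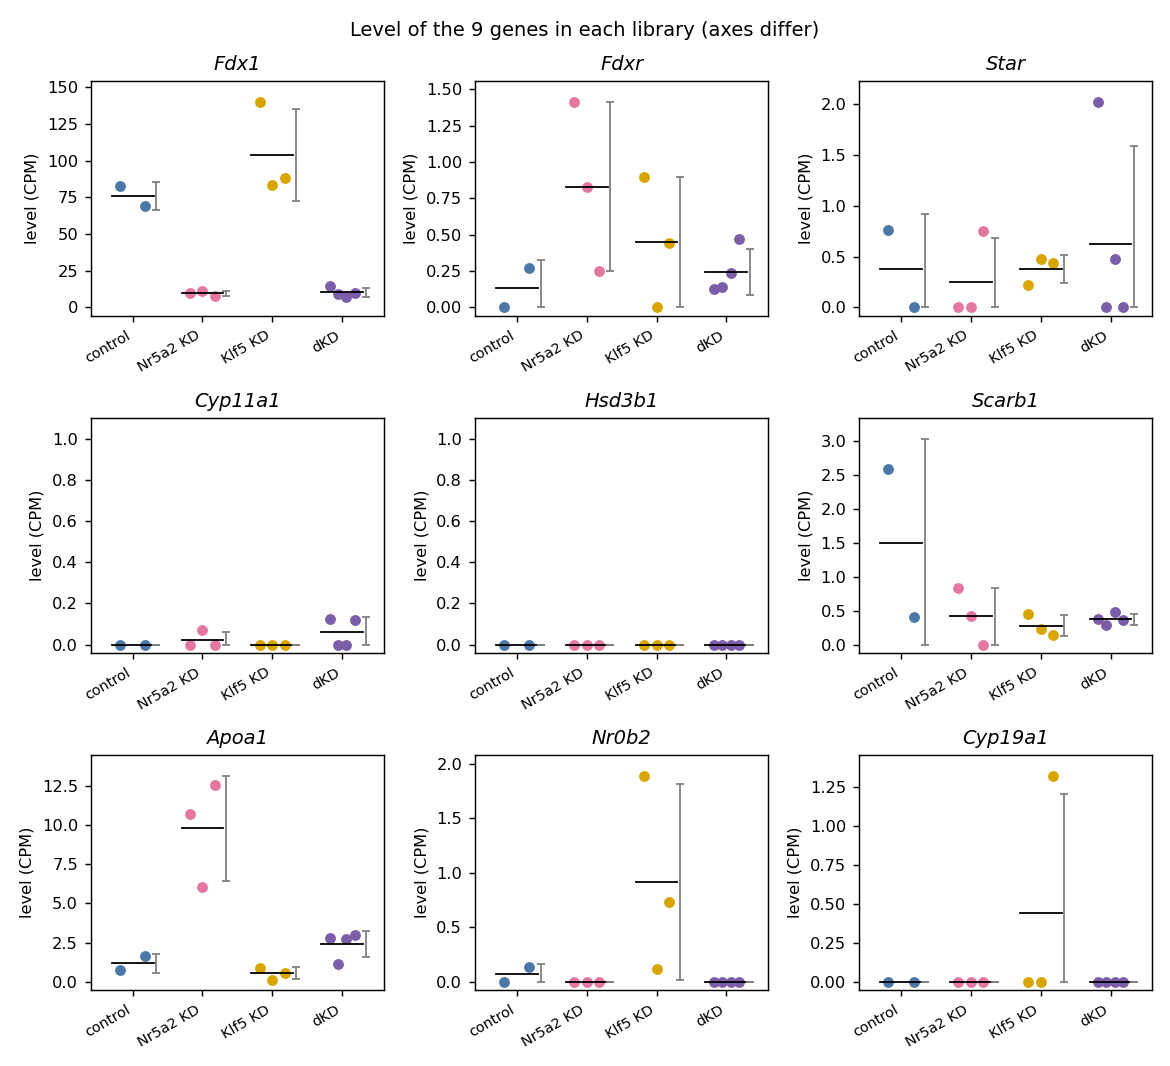
Level of each of the 9 genes in CPM (y axis, a scale for each panel) by group (x axis). Points are libraries, black lines are group means and grey bars are the SD, cut at 0. *Fdx1* is high in control and Klf5 KD (69.1 to 140 CPM) and low in Nr5a2 KD and dKD (7.09 to 14.5 CPM), *Apoa1* is highest in Nr5a2 KD, and the other 7 genes stay at or under 2.58 CPM in every library.

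The electron partner of ferredoxin was nearly silent. *Fdxr* (ENSMUSG00000018861, chr11:115268024-115277050), the reductase that passes electrons to FDX1, had 0 and 2 counts in control, 12, 6 and 2 in Nr5a2 KD, 10, 0 and 3 in Klf5 KD, and 1, 1, 2 and 4 in dKD. The groups overlapped, and *Fdxr* passed the filter on low counts in no comparison. *Fdx1l*, also called *Fdx2*, is the paralog that serves iron-sulfur cluster assembly. It had 10.0 and 14.2 CPM in control, 16.3, 16.4 and 11.3 in Nr5a2 KD, and 12.8, 14.9, 14.8 and 10.8 in dKD, and its levels overlapped between these groups. Its log2 fold change was 0.29 (SE 0.33, adjusted p = 0.642, edgeR) in Nr5a2 KD and 0.18 (SE 0.30, adjusted p = 0.769) in dKD against control. *Fdx1l* shares exons with *Gm49373* and *Gm38431*, between which its reads were split.

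Genes of cholesterol entry and the first steps of steroid synthesis were at or near 0 in control as well. *Star* (ENSMUSG00000031574, chr8:25806555-25815982) had 5 and 0 counts in control, 0, 0 and 6 in Nr5a2 KD, 2.5, 4 and 3 in Klf5 KD, and 16, 0, 4 and 0 in dKD. The counts show no order by group, and 1 dKD library holds most of that group's. *Cyp11a1* (ENSMUSG00000032323, chr9:58006411-58027023), the side-chain cleavage enzyme, had 2.5 counts in all 12 libraries, and it shares an exon with *Gm17322*. *Hsd3b1* (ENSMUSG00000027871, chr3:98852194-98859794) had 0 counts in all 12, which allows a level of up to 0.0312 CPM over the series (3 counts over all libraries, counting error only). Its relatives *Hsd3b2*, *Hsd3b3* and *Hsd3b6* were at 0 too.

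*Cyp19a1* (ENSMUSG00000032274, chr9:54165937-54268110), or aromatase, had 9 counts in Klf5 KD replicate 3 and 0 in the other 11 libraries. In Nr5a2 KD and dKD together its 0 counts allow up to 0.0540 CPM. With control also at 0 counts, no fall could have been seen.

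*Scarb1* (ENSMUSG00000037936, chr5:125277087-125341094), the lipoprotein receptor that takes up cholesterol esters, had 17 and 3 counts in control. It had 7, 3 and 0 in Nr5a2 KD, 5, 2 and 1 in Klf5 KD, and 3, 2, 4 and 3 in dKD. The control mean, 1.49 ± 1.54 CPM (SD, n = 2), rests on control replicate 1, and control replicate 2, at 0.403 CPM, lies within the range of Nr5a2 KD. Against control, exact permutation p-values were 0.3 with Nr5a2 KD and 0.133 with dKD, where 0.1 and 0.0667 are the smallest possible.

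*Apoa1* (ENSMUSG00000032083, plus strand, chr9:46228580-46230466) shares no exon with another gene. It had 0.758 and 1.61 CPM in control, 10.7, 6.06 and 12.6 in Nr5a2 KD, 0.900, 0.118 and 0.587 in Klf5 KD, and 2.78, 1.13, 2.72 and 2.95 in dKD. All 3 Nr5a2 KD libraries were above the other 9. The counts behind them are 91, 44 and 100 in Nr5a2 KD against 5 and 12 in control, and the gene passed the filter through the libraries where it is high. Its level went from 1.18 ± 0.603 CPM (SD, n = 2) to 9.78 ± 3.35 (n = 3). The fit gave a log2 fold change of 3.04 (SE 0.56, adjusted p = 0.0067, edgeR). Since the gene entered the test only where it is high, these values are a description of it.

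Of the 8 genes not chosen on Nr5a2 loss, *Apoa1* was the 1 that passed the filter and the 1 called in this comparison, so the count says nothing of the other 7. Of all 13262 genes tested 3.45% were called higher and 4.42% lower, 7.86% in all. A call here is an adjusted p under 0.05 with at least a 2-fold change. Without control replicate 1 the log2 fold change was 2.61 with an adjusted p of 0.070, and it was not called. Without control replicate 2 the log2 fold change was 3.70. With the mitochondrial share as a covariate it was 2.46 (adjusted p = 0.0332). Exact permutation of the libraries gave p = 0.2, where 0.1 is the smallest possible.

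In dKD, *Apoa1* was closer to control. Set against control, its log2 fold change came to 1.04 (SE 0.69, adjusted p = 0.387, edgeR), and dKD replicate 2, with 1.13 CPM, lay between the 2 control libraries. The value was 0.61 without control replicate 1, 1.70 without control replicate 2 and 1.90 with ERCC scaling (adjusted p = 0.0789). Against Klf5 KD it was 2.11 (SE 0.70, adjusted p = 0.0665) with no overlap, short of a call, beside 5.38% of 12904 genes called higher and 5.41% lower. Neither control nor Klf5 KD would have passed the filter for *Apoa1*, which entered both tests through dKD, so these values are a description too. Against Nr5a2 KD it was -2.01 (SE 0.41, unadjusted p = 0.000338), and the adjusted p over all genes was 0.999. The groups did not overlap. DESeq2 gave an adjusted p of 0.0257, edgeR with no filter 0.00638 and edgeR with the replicate block 0.202. Of dKD against control, 3.38% of 13724 genes were called higher and 3.85% lower, 7.24% in all, *Apoa1* not among them.

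*Nr0b2* (ENSMUSG00000037583, chr4:133553376-133556536), the repressor of NR5A2, was listed at 0 in all 7 libraries with Nr5a2 knocked down, which allows up to 0.0540 CPM. Control had 0 and 1 counts, so that no fall from control could have been seen. Klf5 KD had 21, 1 and 5 counts, each above dKD. Klf5 KD was at least 10.9-fold higher than dKD when dKD is set to 3 counts over the group, and at least 4.18-fold without Klf5 KD replicate 1, which holds 21 of the 27 counts. The exact permutation p of 0.0286 is the smallest possible, among 37 such tests run over the 9 genes and *Fdx1l*. *Nr0b2* did not pass the filter, and without a filter edgeR called it lower in dKD than in Klf5 KD (adjusted p = 0.00612).

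**Figure D2:**
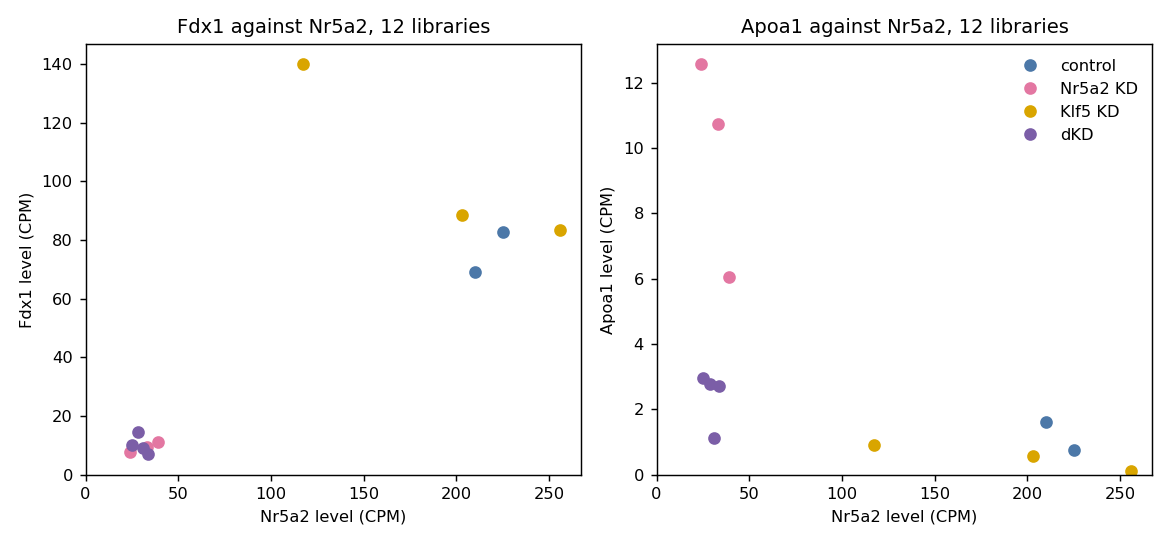
Level of *Fdx1* (left) and *Apoa1* (right) in CPM on the y axis against that of *Nr5a2* on the x axis, 1 point for each of the 12 libraries, coloured by group. Nr5a2 KD and dKD libraries, at 24.1 to 38.9 CPM of *Nr5a2*, lie together for *Fdx1* and apart for *Apoa1*, where Nr5a2 KD has 6.06 to 12.6 CPM and dKD 1.13 to 2.95.

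The order of the levels in control, per kilobase of exon, was *Fdx1* (24.5 CPM), *Apoa1* (0.958), *Scarb1* (0.175), *Star* (0.0921), *Nr0b2* (0.0593) and *Fdxr* (0.0478), then *Cyp11a1*, *Hsd3b1* and *Cyp19a1* at 0. From *Apoa1* down, these levels rest on 20 counts or fewer in the 2 libraries together, and the levels of *Scarb1* and those after it are not told apart by the spread of these libraries. Klf5 KD replicate 1 had the highest *Fdx1* and the lowest *Nr5a2* outside the Nr5a2 knockdowns.

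Likeness to *Fdx1* is a description here, since its pattern chose it. The genes whose pattern over the 12 libraries was most like that of *Fdx1*, of 14829 compared, were *Arhgdig* (r = 0.99), *Bmp7* (0.99), *Idh1* (0.99), *Ramp1* (0.99) and *Tmem192* (0.98). *Idh1*, a cytosolic enzyme that makes NADPH, had mean levels of 58.3 CPM in control, 8.60 in Nr5a2 KD, 74.5 in Klf5 KD and 9.03 in dKD. *Bmp7*, a secreted growth factor, went from 1.78 CPM in control to 0 in both Nr5a2 knockdowns.

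Genes around the 9 were grouped by their step in the pathway. The 13 mitochondrial P450 enzymes and electron carriers had 6 tested members, and none besides *Fdx1* was called in any comparison. The median of their log2 fold changes in Nr5a2 KD was 0.059, beside 0.044 over all genes. *Cyp11b1*, *Cyp11b2* and *Cyp21a1*, enzymes of the adrenal gland, had 0 counts in every library. FDX1 is also needed to attach lipoic acid to mitochondrial enzymes. Of 11 genes of protein lipoylation, all tested, 1 was called in Nr5a2 KD and in dKD against control, beside 7.86% (Nr5a2 KD) and 7.24% (dKD) of all genes. It was *Dlat*, the lipoyl-carrying part of pyruvate dehydrogenase, which rose in Nr5a2 KD (1.43, SE 0.36, adjusted p = 0.0286, edgeR) and dKD (1.45, SE 0.39, adjusted p = 0.0443). For *Dlat* the call in Nr5a2 KD ended without control replicate 1 (adjusted p = 0.156), control replicate 2 (0.217) or Nr5a2 KD replicate 1 (0.102). In dKD it ended without any 1 library other than dKD replicate 2 (adjusted p = 0.0561 to 0.283). With the mitochondrial share as a covariate it ended in both (adjusted p = 0.0619 and 0.0569). *Gcsh*, the lipoyl-carrying protein of the glycine cleavage system, was named after its values were seen. It fell in dKD against Klf5 KD (-1.36, SE 0.24, adjusted p = 0.00314), a call kept in each of 7 fits with 1 library left out but not with ERCC scaling (adjusted p = 0.0784). Against control its log2 fold change was -0.92 (adjusted p = 0.0324) in Nr5a2 KD and -0.88 (adjusted p = 0.0374) in dKD, under the 2-fold minimum. Of 14 tested genes of iron-sulfur cluster assembly, edgeR and DESeq2 called 0 in Nr5a2 KD or dKD against control, and 1 in each had an unadjusted p under 0.05. *Glrx5*, a glutaredoxin of that pathway and also named after its values were seen, fell in dKD against Klf5 KD (-1.41, SE 0.28, adjusted p = 0.00543), a call kept in each of 7 such fits but not with ERCC scaling (adjusted p = 0.0624), beside 10.8% of all genes called there. Against control it was not called in Nr5a2 KD (-0.89, adjusted p = 0.0777) or in dKD (-0.61, adjusted p = 0.232).

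Cholesterol delivery to mitochondria had 9 tested genes of 14, of which 1 was called in Nr5a2 KD against control (7.86% of all genes), 2 in dKD against control (7.24%) and 2 in dKD against Klf5 KD (10.8%). *Soat2*, which esterifies cholesterol for storage, had 46.8 and 38.9 CPM in control, 16.5, 18.7 and 12.6 in Nr5a2 KD, and 23.4, 11.3, 6.73 and 10.4 in dKD. It fell in Nr5a2 KD (-1.40, SE 0.26, adjusted p = 0.00757, edgeR), in dKD against control (-1.69, SE 0.38, adjusted p = 0.0211) and in dKD against Klf5 KD (-1.74, SE 0.36, adjusted p = 0.00714). *Stard3nl*, a protein of contacts between late endosomes and endoplasmic reticulum, fell in dKD against control (-1.27, SE 0.28, adjusted p = 0.0173) and against Klf5 KD (-1.34, SE 0.26, adjusted p = 0.00523). In Nr5a2 KD it had a log2 fold change of -0.95 with an adjusted p of 0.0376, under the 2-fold minimum. Without control replicate 1 the call of *Soat2* in Nr5a2 KD ended (adjusted p = 0.102), and in dKD against control it ended without control replicate 1 (0.163), control replicate 2 (0.107) or dKD replicate 4 (0.0568), or when the mitochondrial share was a covariate (0.0605). That of *Stard3nl* in dKD against control ended without control replicate 1 (adjusted p = 0.195) or 2 (0.0982), and that against Klf5 KD was kept in each of 7 fits with 1 library left out. The list's median in Nr5a2 KD was -0.16. Neither fall was called with ERCC scaling, on which most genes lie above 0, other than *Soat2* in dKD against Klf5 KD.

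Steroid hormone enzymes had 8 tested genes of 26 found. EdgeR called 2 in Nr5a2 KD against control (7.86% of all genes), 1 in dKD against control (7.24%) and 3 in dKD against Klf5 KD (10.8%). In dKD against control DESeq2 called 3, beside 645 genes lower and 707 higher of 13724. There 5 had an unadjusted p under 0.05 by edgeR, beside 25.0% of all genes. *Srd5a3*, better known for making dolichol than for steroid reduction, fell in Nr5a2 KD (-1.87, SE 0.46, adjusted p = 0.0281, edgeR) and in dKD (-2.34, SE 0.55, adjusted p = 0.0251). In Nr5a2 KD the call ended without control replicate 2 (adjusted p = 0.353) or Nr5a2 KD replicate 1 (0.0630) or 2 (0.0672), and in dKD without control replicate 1 (0.0721) or 2 (0.300) or dKD replicate 4 (0.0592). With the mitochondrial share as a covariate it ended in both (adjusted p = 0.0518 and 0.0901), with ERCC scaling too (0.248 and 0.0710), and in Nr5a2 KD also with all 12 libraries in one fit (0.0508). In dKD against Klf5 KD *Srd5a3* was at -1.67 (SE 0.51, adjusted p = 0.0484), a call that ended without any 1 library other than dKD replicate 1 (adjusted p = 0.0642 to 0.130), by total counts (0.0734) or with ERCC scaling (0.112). *Srd5a1*, a steroid reductase, was at -2.67 there (SE 0.72, adjusted p = 0.0279), entered the test through Klf5 KD, where it is high, and lost its call without any 1 library other than dKD replicate 1 (0.0592 to 0.0778). *Hsd17b11*, a lipid-droplet dehydrogenase, had 0 and 0.939 CPM in control, 5.19, 5.10 and 7.03 in Nr5a2 KD, and 5.56, 5.11, 2.48 and 3.07 in dKD. It was called higher in Nr5a2 KD (3.55, SE 0.85, adjusted p = 0.0226), a call lost without control replicate 1 (adjusted p = 0.105), and also when the mitochondrial share was a covariate (0.0720). It passed the filter through the libraries where it is high, so these values too are a description. In dKD against control it was not called (3.05, SE 0.89, adjusted p = 0.0579). Against Klf5 KD the value in dKD was 3.68 (SE 0.65, adjusted p = 0.00309), a description as well, since the gene entered that test through dKD.

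Among 10 tested genes of lipoprotein particles and their receptors, of 25, *Apoe* was called beside *Apoa1*, so 2 in Nr5a2 KD and 1 in dKD, where 7.86% and 7.24% of all genes were called. *Apoe*, the apolipoprotein that receptors of the LDL receptor family bind, had 6.06 and 3.49 CPM in control, 14.9, 18.3 and 45.3 in Nr5a2 KD, 13.3, 7.80 and 6.46 in Klf5 KD, and 19.1, 19.3, 31.3 and 21.1 in dKD. Every library with a knockdown was above control. It rose in Nr5a2 KD (2.50, SE 0.52, adjusted p = 0.0126, edgeR) and in dKD (2.30, SE 0.37, adjusted p = 0.00559) against control, and in dKD against Klf5 KD (1.30, SE 0.33, adjusted p = 0.0194). The call in Nr5a2 KD ended without control replicate 1 (adjusted p = 0.0533) or 2 (0.121), and also when the mitochondrial share was a covariate (0.0630). Against control, that in dKD ended without control replicate 2 (adjusted p = 0.0847), and against Klf5 KD it ended without Klf5 KD replicate 2 (0.106) or 3 (0.0809) or dKD replicate 3 (0.0556), or with ERCC scaling (0.0795). The list's median in Nr5a2 KD was -0.027. *Apoa4*, *Apoc3* and *Lipc*, which the liver and intestine make, had 0 counts in every library.

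Of 4 tested genes of bile acid synthesis and sterol export, of 15, *Abcb11*, the bile salt export pump and a target of NR5A2 in liver, was called in Nr5a2 KD and in dKD against control, beside 7.86% and 7.24% of all genes. It had 0 counts in both control libraries, 19, 25 and 26 in Nr5a2 KD, 14, 13 and 3 in Klf5 KD, and 24, 37, 48 and 50 in dKD. It thus passed the filter through the libraries where it is high. With control set to 3 counts over the group, it was at least 13.8-fold higher in Nr5a2 KD (adjusted p = 0.0082, edgeR) and at least 23.3-fold higher in dKD (adjusted p = 0.00292), values given as a description for that reason. Leaving out control replicate 1 or 2 ended the call in Nr5a2 KD (adjusted p = 0.0501 and 0.0536). Against Klf5 KD the log2 fold change in dKD was 2.17 (SE 0.52, adjusted p = 0.0154), with the same limit. *Cyp7a1* and *Cyp8b1*, enzymes of bile acid synthesis, were at 0 in all 12 libraries.

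NR5A receptors, partners and co-regulators had 13 tested genes of 20. In dKD against control 1 was called, *Nr5a2*, beside 7.24% of all genes, and *Esrrb* was not (0.79, SE 0.25, adjusted p = 0.0772, edgeR). In Nr5a2 KD against control 2 were called, beside 7.86% of all genes. Besides *Nr5a2*, *Esrrb*, an orphan receptor whose site resembles that of NR5A2, rose in Nr5a2 KD (1.07, SE 0.28, adjusted p = 0.0361, edgeR), a call kept only without Nr5a2 KD replicate 3 among the 5 fits with 1 library left out (adjusted p = 0.0695 to 0.289 in the others).

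**Figure D3:**
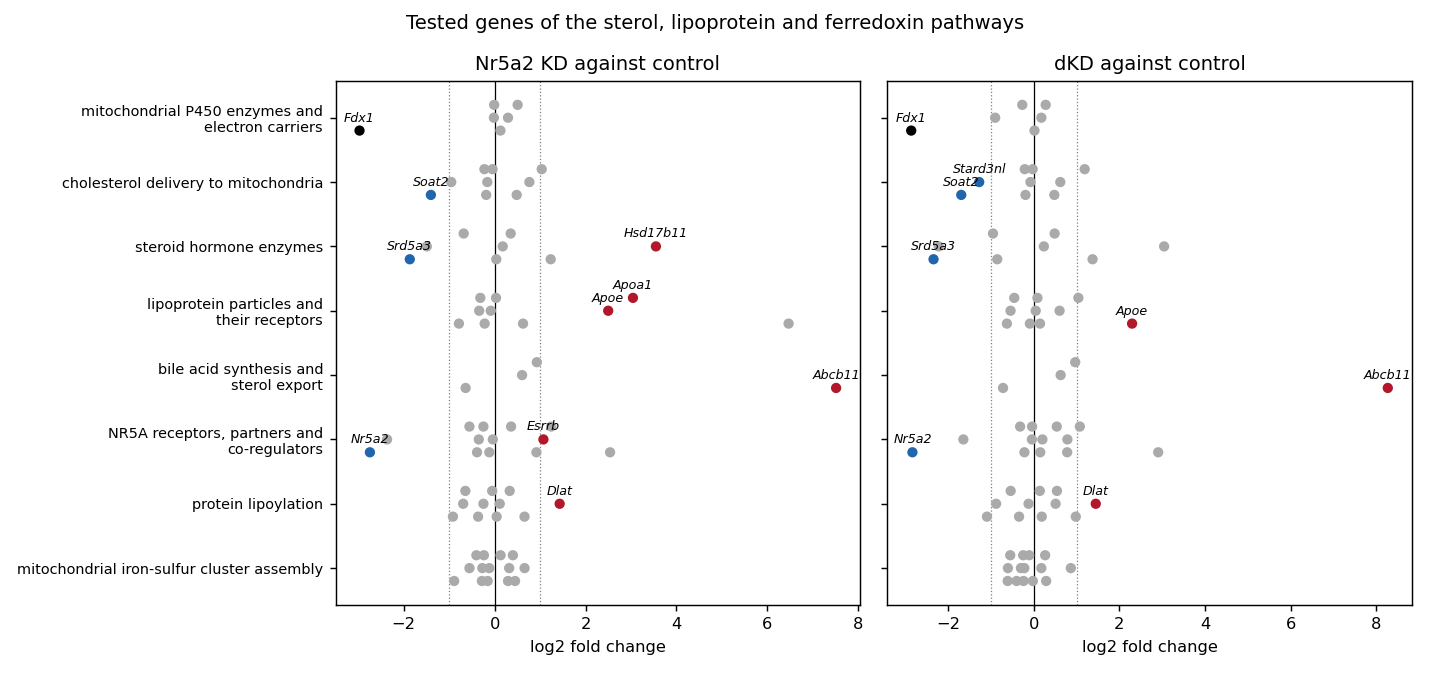
Log2 fold change (x axis) of the tested genes of each list (rows) in Nr5a2 KD (left) and dKD (right) against control. Blue and red points were called lower and higher, grey ones were not called, *Fdx1* is black because its fall chose it, and dotted lines mark a 2-fold change; the position of *Abcb11*, at 0 counts in control, is a fitted value and no estimate of its fold. Lists other than that of *Fdx1* are spread on both sides of 0 with 1 to 2 called genes, or none for iron-sulfur cluster assembly. The 4 tested genes of bile acid synthesis and sterol export have a median of 0.77 in Nr5a2 KD and 0.80 in dKD, beside 0.044 and 0.055 over all genes.

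Of 8 embryo markers tested for the same check in Nr5a2 KD against control, edgeR called 2, beside 7.86% of all genes, and DESeq2 3. Of the 8, 6 had an unadjusted p under 0.05, beside 24.1% of all genes. In dKD against control edgeR and DESeq2 called 0 of 9, and 4 had an unadjusted p under 0.05, beside 25.0% of all genes. *Krt8* and *Krt18*, keratins of the outer cells of the embryo, rose in Nr5a2 KD against control (2.21, SE 0.44, adjusted p = 0.0100, and 2.68, SE 0.63, adjusted p = 0.0221, edgeR). In dKD against control their values were 1.08 (adjusted p = 0.123) and 1.24 (adjusted p = 0.347). In Nr5a2 KD against control *Tfap2c*, a transcription factor of the outer cells, had a log2 fold change of -0.99 (adjusted p = 0.0246, edgeR), under the 2-fold minimum. There *Nanog*, of the inner cells, was at -1.20 (adjusted p = 0.0607). In dKD against control *Tfap2c* was at -0.62 (adjusted p = 0.0957) and *Nanog* at -1.62 (adjusted p = 0.115). *Krt8* had 18.2, 8.54 and 12.3 CPM in Nr5a2 KD, 2.88 and 2.82 in control and 5.31 to 6.91 in dKD. The 3 libraries highest in *Apoa1* were thus also the 3 highest in *Krt8*, and the part of the keratins' cells in the level of *Apoa1* was not tested. The call of *Krt8* ended without control replicate 1 (adjusted p = 0.0839) or 2 (0.0857), and that of *Krt18* without control replicate 1 (0.141) or Nr5a2 KD replicate 1 (0.0537), or when the mitochondrial share was a covariate (0.103).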

How the data were processed

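RNA-seq libraries of 10 pooled 8-cell embryos were made with a SMART-seq kit, without strand or molecular identifiers. The study's methods give a NovaSeq sequencer for these libraries, and the labels a NovaSeq or AVITI, with no sequencer per library; its part was not tested. The authors trimmed reads (Trim Galore 0.6.2), mapped with STAR, and assigned pairs to the exons of genes by featureCounts 2.0.1. What was deposited is 1 estimated count per gene of GRCm38, with pairs over several genes split between them (7.30 to 8.66% of genes were not whole). They were rounded before testing. Depth was 6676683 to 12560926 counts, and intervals and limits cover counting error only.

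EdgeR 4.0.16 (R 4.3.3; filterByExpr with count 10 and total 15, TMM, glmQLFit, glmQLFTest) was fitted for 5 comparisons, each over its own libraries, with Benjamini-Hochberg adjustment over all tested genes. A gene was called when it changed 2-fold or more with an adjusted p below 0.05. Single values were compared by two-sided exact permutation. On simulated data with 200 genes changed 4-fold, 64% were recovered for Nr5a2 KD against control.

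The 9 genes, the lists and the rule were chosen with earlier results of these data known. The rule names the 9 genes, *Nr5a2* and *Klf5*, up to 3 genes per list and direction called against control with the smallest adjusted p, close paralogs, and the 5 genes most correlated with *Fdx1*. *Cyp11b1* and other genes at 0 were added as values. Same-numbered libraries of Nr5a2 KD and dKD deviated together (correlations of 0.129, 0.222 and 0.254). No label says that equal numbers mark a shared collection. Their mitochondrial shares were 10.4% and 12.8% in replicate 1, 12.5% and 12.6% in replicate 2, and 6.18% and 6.75% in replicate 3. The part of these shares in the correlations was not tested. The replicate block was therefore fitted as an alternative only. Alternatives were DESeq2 1.42.0, other scalings and filters, all 12 libraries in one fit, the replicate block, the mitochondrial share as a covariate, unrounded values, no fold minimum, and each library left out. The alternatives for genes outside the 9 were added after seeing the data. A gene of the list of NR5A partners is not reported here.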

Additional observations from a re-analysis of the deposited data

Results flagged for a closer look

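In dKD, *Apoa1* in replicate 2 lay far below the other 3 libraries, at 1.13 CPM against 2.72 to 2.95 CPM, a gap of 0.870 of the group's range, above the limit of Dixon's test for 4 values. Without that library, its log2 fold change in dKD against Klf5 KD was 2.34 (adjusted p = 0.0492, edgeR), a description, since it entered that test through dKD. *Apoe* in dKD replicate 3 lay above the other 3, at 31.3 CPM against at most 21.1 CPM, a gap of 0.832 of the range. The test was run on 22 genes, and chance alone marks about 1 group in 20.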

How the results depend on the processing

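The count of genes other than *Fdx1* called higher in Nr5a2 KD against control was 1 and became 0 with a mean of at least 50 normalized counts, since *Apoa1* was then not tested, and it ranged from 0 to 1 with 1 library left out. In dKD against Klf5 KD the count called higher was 0 and became 1 (*Apoa1*) by DESeq2, with total counts, with all 12 libraries in one fit and with a covariate for the mitochondrial share, and ranged from 0 to 1 with 1 library left out; the cause was not tested. There the count called lower became 1 (*Nr0b2*) with no filter, under which it was tested. This is a description, since of these 2 groups only Klf5 KD has counts of *Nr0b2*. In dKD against Nr5a2 KD the count called lower became 1 (*Apoa1*) by DESeq2 and with no filter. Of 110 counts under other settings 8 moved, and of 60 with 1 library left out 2 moved. The change of *Fdx1* reversed to -0.053 in Klf5 KD against control with that covariate, and in dKD against Nr5a2 KD it ranged from -0.12 to 0.24 with 1 library left out, below 0 without dKD replicate 1. With the replicate block the log2 fold change of *Apoa1* in Nr5a2 KD was 2.77 (adjusted p = 0.0207) and its change in dKD against Nr5a2 KD -2.16 (adjusted p = 0.202), and the block changed no call on the 9 genes. Same-numbered libraries of Nr5a2 KD and dKD deviated together with no label to pair them, and elsewhere the correlations were -0.203 to 0.060. There the block ended the calls of *Srd5a3* (adjusted p = 0.0579) and *Krt18* (0.0550) in Nr5a2 KD against control and of *Apoe* (0.0947), *Abcb11* (0.100), *Srd5a1* (0.105) and *Srd5a3* (0.107) in dKD against Klf5 KD, and in Klf5 KD against control it called 146 genes lower and 107 higher, where none was called before. Scaling by ERCC gave 90 genes lower and 761 higher in Nr5a2 KD against control, and 178 and 2838 in dKD, in place of 586 and 457 and of 529 and 464. At 20 counts or fewer in a group, no fall of *Scarb1*, *Star*, *Fdxr*, *Nr0b2* or *Cyp11a1* from control can be told.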
